A study of Mus musculus with 10 samples.

Results

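Spleen erythroblasts that lack both Nrf2 and the miR-144/451 microRNA cluster (double-null) were compared with erythroblasts that lack the cluster alone (miR-144/451-null). The 5 libraries were chosen by genotype label, from 10 libraries in the series: double-null replicates 1, 2 and 3 against miR-144/451-null replicates 1 and 3. The comparison asks what loss of Nrf2 does to gene expression where the cluster is already absent. The remaining libraries, wild type (n = 2) and Nrf2-null (n = 3), gave the same loss of Nrf2 with the cluster present. All mice were of the C57BL/6 strain and had received the chemotherapeutic drug 5-FU 11 days earlier, so every group carries that treatment and both groups of the main comparison carry the cluster deletion. Erythroblasts, nucleated precursors that divide and fill with hemoglobin before they become red cells, were taken from the spleen with magnetic beads. No source used here gives the alleles, the age of the mice or the mouse behind each library, so a p-value covers only library-to-library spread, which may be technical.

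The transcription factor Nrf2, encoded by Nfe2l2, is bound by Keap1 in the cytoplasm and degraded. When oxidants modify Keap1, Nrf2 enters the nucleus, pairs with a small Maf protein and binds antioxidant response elements near genes for quinone reductases, glutathione and thioredoxin enzymes and NADPH supply. The miR-144/451 cluster is transcribed under Gata1 and is abundant in erythroid cells, where its microRNAs are known for protecting red cells from oxidant damage. miR-451 represses Ywhaz, an adaptor that holds the transcription factor FoxO3 in the cytoplasm, and FoxO3 also drives antioxidant genes. Among the mature microRNAs that both groups lack, miR-144-3p and miR-451a are shown with their seed, bases 2 to 8, in capitals (RefSeq, GRCm38.p6).
miR-144-3p: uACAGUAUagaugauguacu
miR-451a: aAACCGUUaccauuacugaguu

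Libraries held 13087827 to 15131036 counts. Of the 13 tested erythroblast markers none was missing, and their summed level was 106064 and 94210 CPM (counts per 1000000, after edgeR's TMM scaling) in the miR-144/451-null libraries and 133366 to 163401 CPM in the double-null libraries. Globin genes took 7.93% and 8.0% of the counts in miR-144/451-null and 9.86% to 12.18% in double-null. By Xist and Y-linked counts, double-null replicate 3 was female and the other 4 libraries of the comparison were male. Both wild type libraries were female and all 3 Nrf2-null libraries male, so with the cluster present genotype and sex cannot be told apart. In these bulk samples, fewer cells of a type and less RNA per cell cannot be told apart.

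Loss of Nrf2 on the cluster-null background moved few genes beyond the spread between libraries. Of 14110 genes tested, 9 (0.0638%) passed a Benjamini-Hochberg adjusted p of 0.05 in edgeR's quasi-likelihood test, 7 higher (0.0496%) and 2 lower (0.0142%) in double-null, all at least 2-fold. The Nrf2 target Pir (pirin) fell, and the splicing factor gene Cwc22, the translation factor gene Eif3j2, the inflammasome sensor genes Naip2 and Naip5 and the histone gene Hist1h4n rose. The other 3 genes, Rps19-ps6 (lower), Gm10031 and Gm15601 (higher), carry pseudogene or predicted-gene names, lie outside the naming rule and were named after their values were seen. At an unadjusted p under 0.05, 678 genes were higher (4.81%) and 828 lower (5.87%). In 1707 genes (12.1%) every double-null library lay above both miR-144/451-null libraries, and in 1755 (12.4%) below them. DESeq2 called 183 of 12902 genes (1.42%), 92 higher and 91 lower. With 2 libraries in an arm, 1 library could decide the count: 17 genes passed without double-null replicate 2, 16 without Nrf2-null replicate 3 and 4 without double-null replicate 1. More genes passed with 1 miR-144/451-null library left out. Those fits leave 1 library in that group, so its own spread does not enter them.

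**Figure D1:**
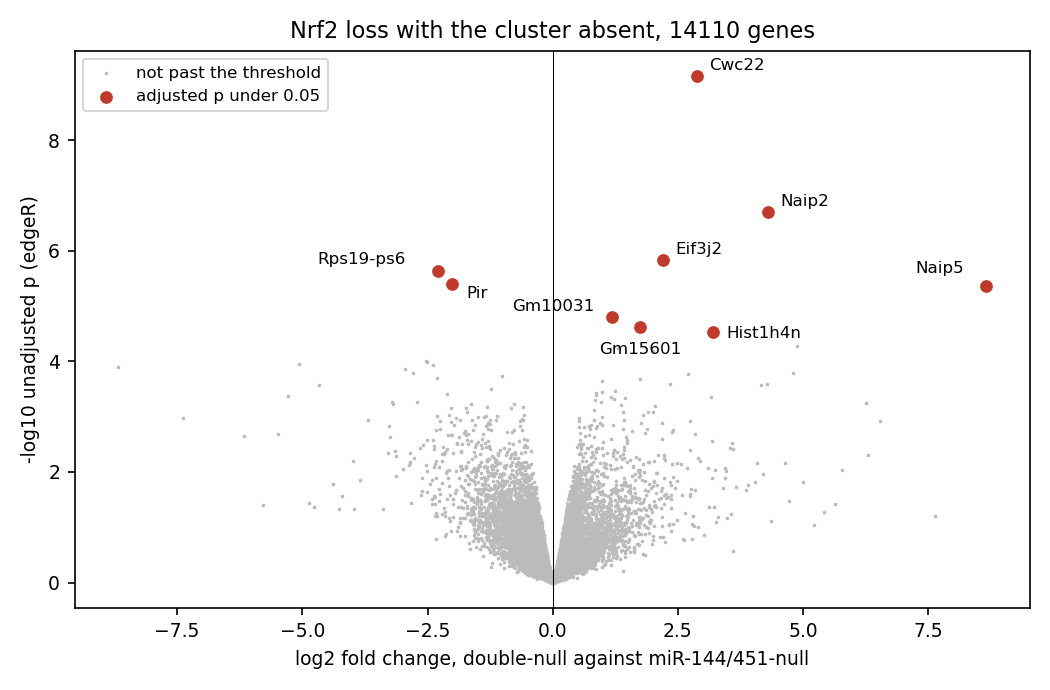
Each point is 1 of 14110 genes, with the log2 fold change of double-null against miR-144/451-null on the x axis and −log10 of the unadjusted edgeR p on the y axis. The 9 genes past the adjusted threshold are red: 7 lie on the higher side and 2, Pir and Rps19-ps6, on the lower side.

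The deleted genes come first. In all 5 libraries Mir144 was at 0 counts, against 29 counts over the wild type and 38 over the Nrf2-null libraries, and Mir451a had 0 counts in every library of the series, so it was not measured. Nfe2l2 stood at 81.7 and 86.1 CPM in miR-144/451-null and at 62.7, 52.7 and 49.2 CPM in double-null. Each double-null library was below both others, as in 12.4% of all genes. The log2 fold change of -0.61 ± 0.14 (SE) did not pass (adjusted p = 0.2). A count over the whole gene does not show which part was deleted, so this value is no check on the Nrf2 label. Of 15 genes of Nrf2 and its regulators none passed, and the median log2 fold change was -0.01, beside -0.02 over all tested genes. Sqstm1 (p62), an autophagy adaptor that competes with Nrf2 for Keap1 and is itself a target, stood at 604 and 345 CPM against 772, 881 and 667 CPM in double-null (0.70 ± 0.24, adjusted p = 0.372).

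Genes that lie next to a deleted gene are inherited with it, so the neighbours of Nfe2l2 on chromosome 2 were described in order. Of the 40 nearest tested genes, 20 on each side, Cwc22 alone passed. At an unadjusted p under 0.05, 3 of the 40 were higher and 4 lower, beside 4.81% and 5.87% of all genes. The median log2 fold change of the 40 was -0.05. Over the 1037 tested genes of the chromosome, 111 (10.7%) had an unadjusted p under 0.05, as did 10.7% of all genes. The gene next to Nfe2l2, E030042O20Rik, stood at 1.31 and 1.76 CPM in miR-144/451-null and at 0.297, 0.380 and 0.0721 CPM in double-null (log2 fold change -2.59 ± 0.70, adjusted p = 0.27), and was named after its values were seen. Agps, an enzyme of ether lipid synthesis that follows it, stood at 62.0 and 61.9 CPM against 87.8, 85.3 and 94.5 CPM (adjusted p = 0.2; also named after its values were seen).

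Pir encodes pirin, an iron-binding nuclear protein and a known Nrf2 target on the X chromosome. Its level was 33.6 and 24.2 CPM in miR-144/451-null and 7.58, 7.14 and 6.63 CPM in double-null. No double-null library came near the cluster-null range, and the fall was 4.05-fold (log2 fold change -2.02 ± 0.24 SE, adjusted p = 0.0101). On the deposited per-length scale it averaged 5.74 FPKM against 1.23 FPKM. With the cluster present Pir fell as well, from 27.7 and 48.8 CPM in wild type to 11.7, 11.7 and 10.2 CPM in Nrf2-null (-1.77 ± 0.24, adjusted p = 0.00914). The difference between the 2 effects, -0.25 ± 0.34, did not pass (adjusted p = 0.999). The call with the cluster absent was lost without double-null replicate 1 (adjusted p = 0.051), without the female double-null replicate 3 (adjusted p = 0.0657), in male libraries alone (0.0765), with a term for sex (0.0639) and with the 5 libraries of the contrast alone (0.051). The log2 fold change lay between -2.07 and -1.96 in these 5 settings.

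The antioxidant response element has the core TGACNNNGC, which was searched on both strands in the 250 bases before each start site of the RefSeq promoter table (GRCm38.p6). It was found in 10.2% of all 32851 promoters and in 14.0% of the 9770 tested genes with a promoter. The share was 12.4% among genes lower at an unadjusted p under 0.05, 13.3% among genes higher at that level and 14.2% among the rest. In the Nrf2 target lists described next, 12 of 64 genes (18.8%) had it. Among the genes past the threshold it was in Pir, the 1 lower gene with a promoter in the table, and in 1 of 3 higher genes, Naip2. The windows below show the core in capitals, with flanking bases in lower case, for Pir and, since the core also stood before genes that did not pass, for 4 such list members.
Pir: gcatagagagGCTGAGTCActcccccaaa
Prdx1: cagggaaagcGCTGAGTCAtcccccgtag
G6pdx: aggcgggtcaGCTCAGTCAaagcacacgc
Gclm: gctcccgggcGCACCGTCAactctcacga
Txnrd1: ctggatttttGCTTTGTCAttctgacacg
All 5 are written along the gene's own strand, and the core reads on the opposite strand. The Pir window lies at chrX:164269207-164269235 on the + strand, with its core 214 to 206 bases before the start. The Prdx1 window, at chr4:116685456-116685484 on the + strand, holds the same 9 letters, TGACTCAGC on the opposite strand, 133 to 125 bases before the start. Prdx1, a thioredoxin-dependent peroxidase, stood at 129 and 119 CPM in miR-144/451-null and at 111, 109 and 139 CPM in double-null, with overlapping groups (log2 fold change -0.05 ± 0.18). The G6pdx window lies at chrX:74428919-74428947 on the − strand, the Gclm window at chr3:122245413-122245441 on the + strand and the Txnrd1 window at chr10:82859104-82859132 on the + strand.

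Over 5 lists of Nrf2 targets, 73 of 88 genes were tested and Pir alone passed, in edgeR and in DESeq2. At an unadjusted p under 0.05, 3 members were higher and 9 lower, or 12 of 73, where all genes gave 4.81% higher and 5.87% lower. The median log2 fold change was -0.05 with the cluster absent and -0.18 with the cluster present, where 4 were higher and 16 lower at an unadjusted p (5.18% and 6.92% over all genes). No member passed the test of the difference between the effects. The plot of log2 fold changes of these lists sets both contrasts side by side.

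**Figure D2:**
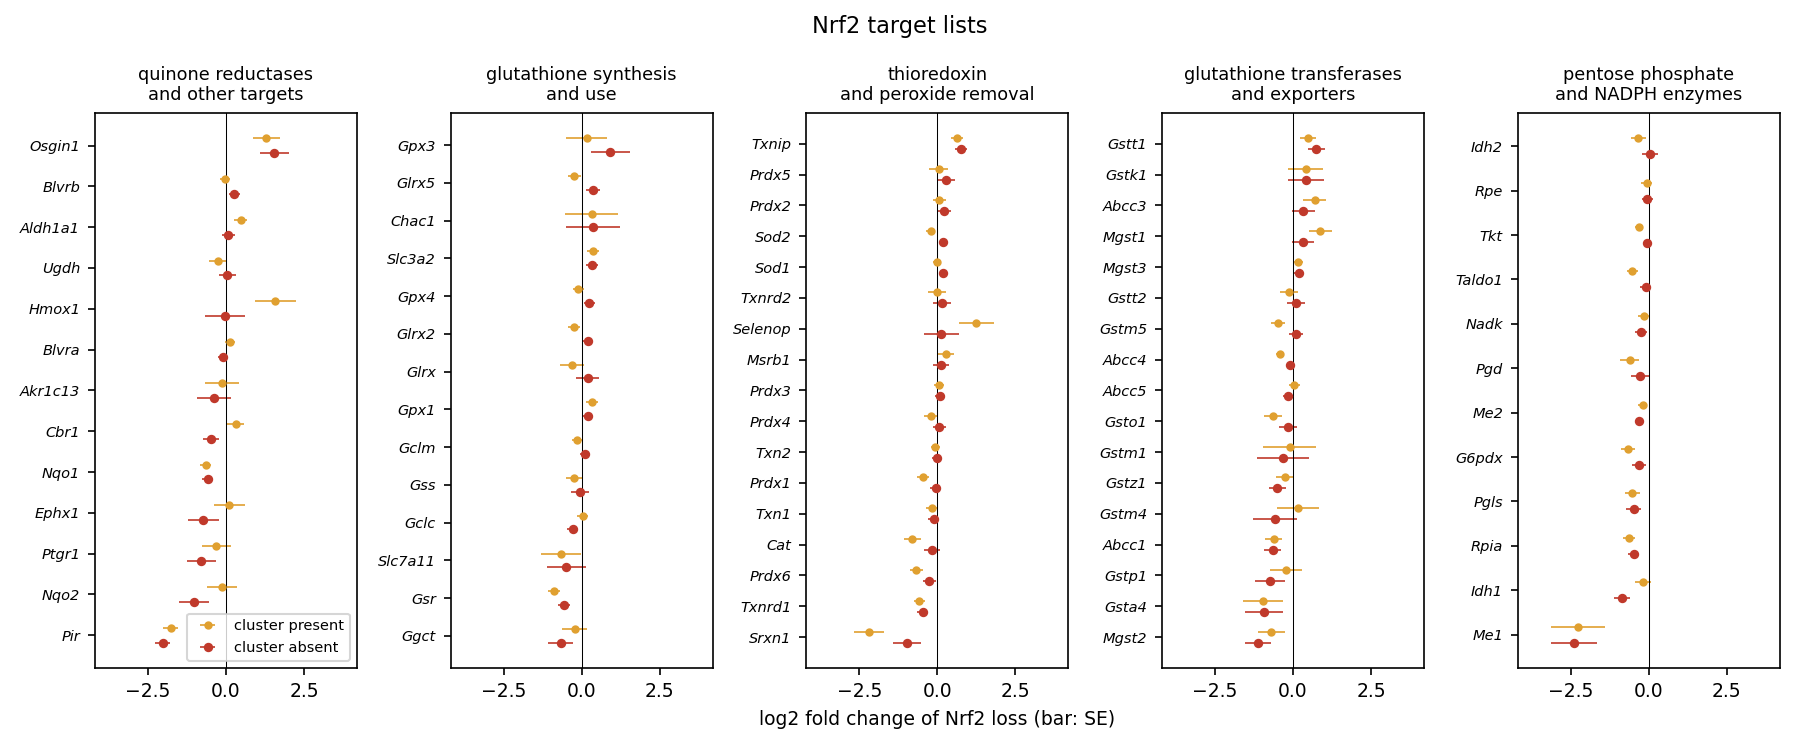
Log2 fold changes (points) with their SE (bars) for the tested members of 5 Nrf2 target lists, with the cluster absent in red (double-null against miR-144/451-null) and present in orange (Nrf2-null against wild type). Pir is lowest in the first list in both contrasts, at -2.02 and -1.77, and the pentose phosphate panel lies mostly below 0.

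Among quinone and carbonyl reductases and other classical targets, 13 were tested and the median was -0.38. Nqo1, the quinone reductase that is the standard readout of Nrf2 activity, stood at 44.6 and 41.8 CPM in miR-144/451-null and at 27.2, 30 and 28.6 CPM in double-null. The groups did not overlap, as in 24.5% of all genes, and the difference did not pass (log2 fold change -0.59 ± 0.19, adjusted p = 0.326). With the cluster present the log2 fold change was -0.65. Osgin1, an oxidative stress growth inhibitor, was at 1.17 and 0.528 CPM against 1.93, 2.74 and 2.74 CPM (1.55 ± 0.46, adjusted p = 0.317). Hmox1, which breaks down heme, ranged from 45.5 to 64.8 CPM in miR-144/451-null and from 20.4 to 74.6 CPM in double-null, a spread wider than any difference between the means (-0.03 ± 0.63).

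The median over 14 genes of glutathione synthesis and use was 0.19 on the log2 scale. Gsr, which reduces oxidised glutathione with NADPH, stood at 75.8 and 70.5 CPM against 53.8, 47.4 and 47.6 CPM. Its groups did not overlap, as in 24.5% of all genes. Its log2 fold change was -0.56 ± 0.20 (adjusted p = 0.374), and -0.89 with the cluster present. Both subunits of the rate-limiting enzyme of glutathione synthesis had overlapping groups: the catalytic Gclc at -0.28 ± 0.18 and the modifier Gclm at 0.11 ± 0.16. Gpx1, the main glutathione peroxidase of red cells, had the highest level of the 5 lists on the per-length scale. It averaged 2183 FPKM in miR-144/451-null against 2149 FPKM in double-null. That scale lacks the TMM scaling, with which the log2 fold change was 0.19 ± 0.19. Gclc, Gclm, Hmox1, Prdx1, G6pdx and Gpx1 lie outside the naming rule and were named after their values were seen.

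For thioredoxin and peroxide removal (17 genes, median 0.10), Srxn1, the sulfiredoxin that repairs over-oxidised peroxiredoxins, stood at 161 and 102 CPM in miR-144/451-null and at 52.3, 87.1 and 61.4 CPM in double-null. Every double-null library was lower, as in 12.4% of all genes. The log2 fold change was -0.97 ± 0.46 (adjusted p = 0.496), and -2.19 with the cluster present. Thioredoxin reductase 1 (Txnrd1) was at 118 and 92.4 CPM against 63.9, 73.3 and 89.8 CPM (-0.47 ± 0.18, adjusted p = 0.404). Txnip, which binds and inhibits thioredoxin and is also a FoxO3 target, went the other way, from 40.7 and 50.5 CPM to 67.6, 91.3 and 72.6 CPM (0.76 ± 0.20, adjusted p = 0.271). Among 17 glutathione transferases and exporters (median -0.15), Mgst2 was at -1.13 ± 0.42, the exporter Abcc1 at -0.65 ± 0.27 and Gstt1 at 0.74 ± 0.27, none past the threshold.

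The pentose phosphate pathway and its NADPH-making relatives had mostly negative log2 fold changes, and none passed. All 12 enzymes were tested, 11 were negative and the median was -0.29. At an unadjusted p under 0.05, 3 were lower and none higher (5.87% lower over all genes), and in 6 every double-null library was below both miR-144/451-null libraries (12.4% over all genes). Malic enzyme 1 (Me1), scarce in these cells, stood at 1.46 and 1.70 CPM against 0.149, 0.532 and 0.216 CPM (-2.38 ± 0.74, adjusted p = 0.326). Cytosolic isocitrate dehydrogenase (Idh1) was at 9.49 and 13.7 CPM against 6.10, 7.52 and 5.69 CPM (-0.85 ± 0.25, adjusted p = 0.305). Ribose 5-phosphate isomerase (Rpia) was at -0.48 ± 0.18, and glucose 6-phosphate dehydrogenase (G6pdx), the entry enzyme, at 88.4 and 82.5 CPM against 70.0, 62.8 and 72.8 CPM (-0.32 ± 0.23, adjusted p = 0.625). With the cluster present the list median was -0.42. Without any scaling between libraries, which shifts the median of all genes to -0.24, this list stood at -0.50.

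Among the genes that rose, 3 also rose past the threshold with the cluster present: Cwc22, Eif3j2 and Gm10031. The differences between the effects did not pass, at -0.70 ± 0.19 for Cwc22 (adjusted p = 0.888), -0.37 ± 0.32 for Eif3j2 (0.999) and -0.62 ± 0.22 for Gm10031 (0.999). Cwc22, which encodes a spliceosome factor that loads the exon junction complex onto RNA, stood at 32.8 and 28.3 CPM in miR-144/451-null and at 235, 213 and 227 CPM in double-null. The libraries with and without Nrf2 lay far apart, a rise of 7.38-fold (log2 fold change 2.88 ± 0.15 SE, adjusted p = 9.69e-06). Wild type had 28.8 and 23.9 CPM and Nrf2-null 303, 330 and 315 CPM (3.58 ± 0.16, adjusted p = 1.39e-06). Cwc22 is the tenth tested gene after Nfe2l2 in order along chromosome 2, and it passed in each of the 20 alternative settings. Of its 31-mers, 25.0% occur in other annotated genes, mostly in the predicted gene Gm13694. Gm13694 had 0 and 0.117 CPM in miR-144/451-null and 2.23, 2.58 and 1.59 CPM in double-null (adjusted p = 0.072), so part of its reads could be shared with Cwc22.

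Eif3j2, a copy of the gene for subunit j of translation initiation factor eIF3, stood at 8.10 and 7.33 CPM in miR-144/451-null and at 37.3, 32.3 and 37.4 CPM in double-null, 4.62-fold higher (2.21 ± 0.24, adjusted p = 0.00697). In Nrf2-null it stood at 36.8, 61.3 and 37.6 CPM against 7.53 and 7.66 CPM in wild type (2.57 ± 0.24). The call was lost in male libraries alone (adjusted p = 0.0772). Eif3j2 shares 94.0% of its 31-mers with Eif3j1, so its reads are uncertain, and Eif3j1 itself stood at 109 and 89.5 CPM against 97.9, 89.7 and 95.3 CPM (-0.08). The predicted gene Gm10031, 93.3% of whose 31-mers are shared with the kinase gene Csnk2a1, stood at 16.3 and 12.3 CPM against 34.0, 31.2 and 32.0 CPM (1.18 ± 0.16, adjusted p = 0.0316). In Nrf2-null it stood at 38.6 to 44.4 CPM against 11.7 and 12.2 CPM in wild type. Its call was lost without any 1 of 7 libraries, at an adjusted p of 0.0615 without Nrf2-null replicate 2 up to 0.142 without miR-144/451-null replicate 3.

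In most of the remaining calls the miR-144/451-null libraries stood apart from the other genotypes. Whether Nrf2 status or another trait of these libraries set them apart was not tested. Naip2 encodes a sensor that recognises bacterial secretion-system rod proteins and starts the Nlrc4 inflammasome. It had 3 and 8 counts (0.219 and 0.469 CPM) in miR-144/451-null and 7.21, 8.05 and 6.12 CPM in double-null (log2 fold change 4.30 ± 0.38, adjusted p = 0.00139). Wild type, at 8.62 and 8.23 CPM, and Nrf2-null, at 8.01 to 11.7 CPM, lay near or above double-null and far above miR-144/451-null. The difference between the 2 effects of Nrf2 loss passed (4.04 ± 0.46, adjusted p = 0.00923). The test of that difference was lost without miR-144/451-null replicate 1 (adjusted p = 0.0707) or wild type replicate 3 (0.0603) and with a term for sex (0.215).

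Naip5, also on chromosome 13 and a sensor of flagellin, had 0 counts in both miR-144/451-null libraries and 2.23, 4.18 and 4.32 CPM in double-null. Against a floor of 3 counts per library (0.197 CPM) this is at least 18.1-fold higher (adjusted p = 0.0101), a call lost without double-null replicate 3 (adjusted p = 0.0544), in male libraries alone (0.135) and with the 5 libraries of the contrast alone (0.111). Wild type had 5.04 and 6.03 CPM and Nrf2-null 4.59 to 9.56 CPM. The difference between the 2 effects passed for Naip5 as well (adjusted p = 0.0397). That test was lost without Nrf2-null replicate 1 or 2 or double-null replicate 2 or 3 (adjusted p from 0.0826 to 0.109). It was also lost without any 1 wild type or miR-144/451-null library, fits that leave 1 library in a group. A minimum of 1 CPM (adjusted p = 0.0534), a replicate block (0.0517) and a term for sex (0.552) lost it too. Naip2 and Naip5 share 32.8% and 53.1% of their 31-mers with other genes. The related Naip6 stood at 2.48 and 8.68 CPM in miR-144/451-null and at 0.892, 4.03 and 1.66 CPM in double-null (adjusted p = 0.484).

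Hist1h4n, a replication-linked histone H4 gene, stood at 0.657 and 0.587 CPM in miR-144/451-null and at 9.0, 4.48 and 3.96 CPM in double-null (3.21 ± 0.47, adjusted p = 0.0455). Wild type had 1.34 and 1.63 CPM and Nrf2-null 4.17 to 6.20 CPM (1.74 ± 0.43, adjusted p = 0.244). Every library without Nrf2 thus lay above every library with it. Other genes hold 87.5% of its 31-mers, most of them Hist1h4m, which overlapped between the groups. The call was lost without any 1 of 8 libraries, with adjusted p from 0.0544 to 0.142. The predicted gene Gm15601 was at 4.16 and 4.34 CPM against 18, 13.4 and 11.7 CPM (1.75 ± 0.25, adjusted p = 0.0426; wild type 9.47 and 12.3 CPM), and that call was also lost without any 1 of 8 libraries, with adjusted p from 0.0528 to 0.119. Rps19-ps6, a pseudogene of the small ribosomal subunit gene Rps19, stood at 61.4 and 58.4 CPM in miR-144/451-null and at 11.1, 8.89 and 16.7 CPM in double-null (-2.29 ± 0.26, adjusted p = 0.00803). Wild type, at 8.80 and 8.71 CPM, and Nrf2-null, at 5.81 to 9.55 CPM, lay close to double-null, and the call was lost without double-null replicate 1 and with the 5 libraries of the contrast alone (adjusted p = 0.051 in both). It shares 78.2% of its 31-mers with Rps19, which stood at 171 and 152 CPM against 263, 223 and 305 CPM (0.71 ± 0.19, adjusted p = 0.272), so the reads of the pair are uncertain.

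**Figure D3:**
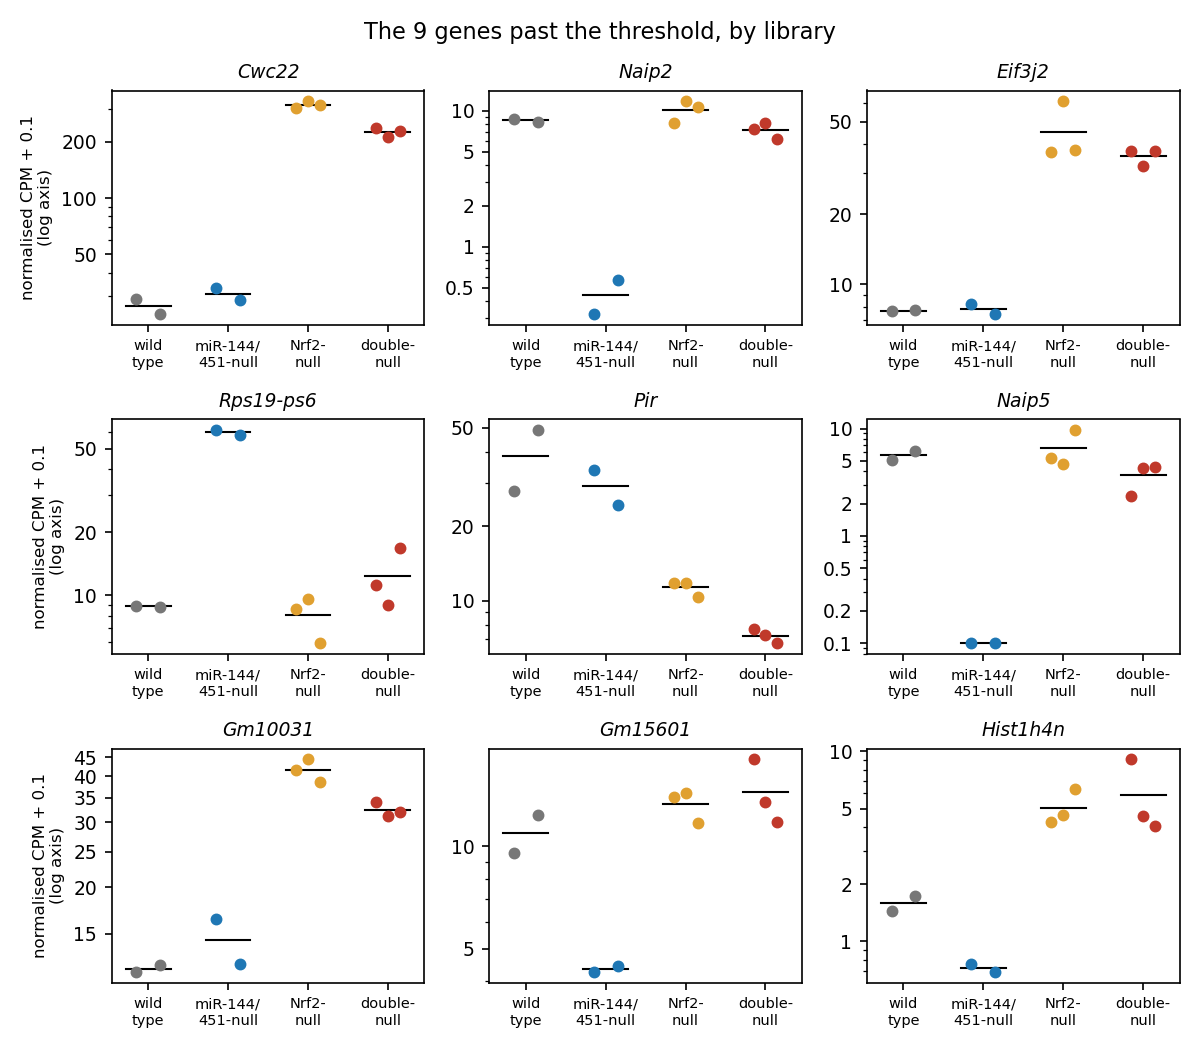
Normalised CPM plus 0.1 on a log axis for each of the 9 genes past the threshold; points are libraries and bars group means (2 libraries for wild type and miR-144/451-null, 3 for Nrf2-null and double-null). Cwc22, Eif3j2, Gm10031, Pir and Hist1h4n separate by Nrf2 genotype. In Naip2, Naip5, Rps19-ps6 and Gm15601 the miR-144/451-null libraries lie apart from the other 3 genotypes.

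The contrast with the cluster present shares no library with this one. It gave 27 genes past the threshold (0.191%), of which 4 passed in both: Cwc22, Eif3j2, Gm10031 and Pir, 14.8% of that list and 44.4% of the 9. Of the 27 genes, 21 had the same sign with the cluster absent and 17 the same sign at an unadjusted p under 0.05. Of the 9 genes, all had the same sign with the cluster present, where the background over all genes was 64.5%. Only 5 of the 9 had it at an unadjusted p under 0.05. Naip2, Naip5, Rps19-ps6 and Gm15601 did not, with log2 fold changes of 0.26, 0.22, -0.14 and 0.29 with the cluster present. Across all 14110 genes the log2 fold changes had Pearson r = 0.37 and Spearman rho = 0.41; genes are not independent replicates.

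A test of the difference between the effects of Nrf2 loss passed for 9 genes (0.0638%), 4 with a positive difference (0.0283%) and 5 with a negative one (0.0354%). At an unadjusted p under 0.05 it gave 629 (4.46%), of which 2.25% of all genes were positive and 2.2% negative. Besides Naip2 and Naip5 they included Fgfrl1, a receptor of the fibroblast growth factor family without a kinase domain. It stood at 64.6 and 51.2 CPM in miR-144/451-null and at 75.9, 80.6 and 84.5 CPM in double-null, but fell from 45.5 and 47.2 CPM in wild type to 4.10, 2.33 and 3.06 CPM in Nrf2-null (difference 4.33 ± 0.28, adjusted p = 4.95e-05). Idua, a lysosomal enzyme that degrades glycosaminoglycans, stood at 13.3 to 15.6 CPM in all 5 libraries without the cluster. It stood at 10.1 and 10.4 CPM in wild type and 1.88, 2.41 and 2.75 CPM in Nrf2-null (difference 2.13 ± 0.31, adjusted p = 0.0397). AA465934 was at 17.2 to 21.3 CPM in all 5 libraries without the cluster, at 14.4 to 21.2 CPM in Nrf2-null and at 2.73 and 3.18 CPM in wild type (-2.53 ± 0.32, adjusted p = 0.0179). The difference in Idua was lost without any 1 of 9 libraries and with a term for sex (adjusted p = 0.956), and that in AA465934 without any 1 of 4 and with that term (0.287), while Fgfrl1 kept it in each fit that could test it. Ints10 and Pttg1 were named by the same rule and did not pass in edgeR (adjusted p = 0.164 and 0.0986). DESeq2 called both differences (adjusted p = 0.0443 and 0.000134).

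The lists of the red cell program had positive medians in double-null, with no member past the threshold. Heme synthesis had a median log2 fold change of 0.24 over 16 genes, 14 of them positive and 2 higher at an unadjusted p under 0.05, where 4.81% of all genes were higher. Alas2, the first enzyme of erythroid heme synthesis, stood at 5007 and 4257 CPM in miR-144/451-null and at 6674, 7308 and 5952 CPM in double-null (0.52 ± 0.21, adjusted p = 0.44). Globins and their chaperones had a median of 0.55 over 8 genes, 3 higher at an unadjusted p, with Hba-a1 at 22864 and 20017 CPM against 35574, 41322 and 31941 CPM (0.76 ± 0.23, adjusted p = 0.325; past the threshold by DESeq2, adjusted p = 0.0412). Of 24 red cell membrane genes, 23 were positive (median 0.24) and 2 higher at an unadjusted p, among them Tmcc2 at 8755 and 5801 CPM against 15519, 15588 and 11965 CPM (0.98 ± 0.27, adjusted p = 0.272) and Epb41, protein 4.1 of the membrane skeleton, at 0.57 ± 0.22. Medians were smaller without miR-144/451-null replicate 3, at 0.09 for heme, 0.09 for membrane and 0.38 for globin genes. With no scaling between libraries the heme and membrane medians were both 0.03, beside -0.24 over all genes.

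Other lists of the maturing erythroblast gave values in both directions. Iron genes had a median of 0.07 over 15, with 3 higher and 1 lower at an unadjusted p: Ncoa4, which delivers ferritin for breakdown, stood at 253 and 258 CPM against 429, 406 and 396 CPM (0.68 ± 0.19, adjusted p = 0.272; DESeq2 0.0472), and Steap3, the endosomal iron reductase, at 55.7 and 69.4 CPM against 43.5, 43.2 and 41.4 CPM (-0.55 ± 0.15). Among 21 erythroid transcription factors (median 0.03), Gfi1b, a repressor needed for red cell and platelet formation, was at 96.7 and 94.5 CPM against 62.7, 44.1 and 74.7 CPM (-0.66 ± 0.20, adjusted p = 0.325). In the Epo receptor and survival list, 4 of 22 were higher at an unadjusted p and 1 lower, beside 4.81% and 5.87% of all genes. The pro-apoptotic Bcl2l11 (Bim) stood at 37.5 and 41.2 CPM against 74.8, 72.6 and 65.4 CPM (0.85 ± 0.18, adjusted p = 0.173, DESeq2 0.00589). With the cluster present, where sex and genotype cannot be told apart, Bcl2l11 passed (1.54 ± 0.18, adjusted p = 0.00374). The survival kinase gene Pim1 was at 0.66 ± 0.25, and at -0.34 ± 0.24 with the cluster present. The 20 FoxO3 targets had a median of 0.42, 5 higher and 1 lower at an unadjusted p. The 14 reported targets of miR-144 and miR-451, which lack their microRNAs in both groups, had a median of 0.00, with Nfe2l2 and Myc (-1.02 ± 0.39, adjusted p = 0.42) lower at an unadjusted p and none higher.

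Autophagy and unfolded protein response genes had positive medians, and no member of either list passed. In mitophagy and autophagy, 7 of 21 were higher and none lower at an unadjusted p under 0.05, where all genes gave 4.81% and 5.87%, and the median was 0.27. Map1lc3b, which marks autophagosomes, stood at 422 and 326 CPM against 514, 601 and 508 CPM (0.53 ± 0.18), Becn1 at 0.43 ± 0.17 and Gabarapl2 at 0.51 ± 0.20. Without miR-144/451-null replicate 3 the median was 0.08 and none was higher at an unadjusted p. In the unfolded protein response, 6 of 18 were higher and none lower (median 0.25): Herpud1, of endoplasmic-reticulum degradation, stood at 212 and 84.0 CPM against 396, 350 and 275 CPM (1.20 ± 0.34, adjusted p = 0.293; DESeq2 0.0207). The chaperones Hsp90b1 (0.57 ± 0.16) and Calr (0.46 ± 0.16) and the secreted factor Manf (0.78 ± 0.22) were among the others. Leaving out miR-144/451-null replicate 1 gave log2 fold changes of 2.01 for Herpud1 and 1.23 for Manf. Leaving out replicate 3 left fewer members higher at an unadjusted p. Each of these fits leaves 1 miR-144/451-null library. Ppp1r15a (Gadd34), which restarts translation after stress, was at 1637 and 892 CPM against 2336, 2349 and 1975 CPM (0.81 ± 0.24, adjusted p = 0.322). Its log2 fold change was 1.31 without miR-144/451-null replicate 1.

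The heat shock list had a median of 0.12 over 14 genes. Its inducible chaperones Hspa1a, at 6.49 and 4.93 CPM against 16.9, 28 and 13.2 CPM (1.76 ± 0.41, adjusted p = 0.204), and Hspa1b, at 27.9 and 17.8 CPM against 57.5, 99.7 and 49.0 CPM (1.59 ± 0.37, adjusted p = 0.214), passed in DESeq2. With the cluster present Hspa1b had a log2 fold change of -2.0. The difference of 3.59 ± 0.52 did not pass in edgeR (adjusted p = 0.067, and 0.0363 without double-null replicate 2). DESeq2 called it (adjusted p = 8.97e-10).

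In mitosis and spindle genes, none of 35 was higher and 6 were lower at an unadjusted p, beside 4.81% and 5.87% of all genes. Their median was -0.14, and 0.22 with the cluster present. Bub1b, a spindle checkpoint kinase, stood at 146 and 157 CPM in miR-144/451-null and at 107, 96.1 and 103 CPM in double-null (-0.57 ± 0.13, adjusted p = 0.2; DESeq2 0.047). The mitotic kinase genes Plk1 (-0.51 ± 0.14) and Aurka (-0.33 ± 0.12) were also lower in every double-null library than in both others. The kinesin gene Kif20a (-0.38 ± 0.13) was too, and so were 12.4% of all genes. DNA replication genes had a median of -0.12 over 34, with 1 higher and none lower at an unadjusted p. Of 10 tested genes of the mitochondrial genome, 9 were negative (median -0.35) and 4 lower at an unadjusted p, among them the complex I subunits mt-Nd1, at 763 and 1012 CPM against 546, 692 and 647 CPM (-0.50 ± 0.17), and mt-Nd5 (-0.43 ± 0.16). Proteasome genes, part of which Nrf2 and its relative Nrf1 can induce, had a median of -0.01 over 32 with 1 higher at an unadjusted p. With the cluster present, where sex and genotype cannot be told apart, their median was -0.30. There 15 were lower at an unadjusted p, beside 6.92% of all genes. Cytosolic ribosomal protein genes had a median of 0.15 over 77, with 2 higher at an unadjusted p, Rps19 among them; without scaling between libraries the median was -0.06, against -0.24 for all genes.

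**Figure D4:**
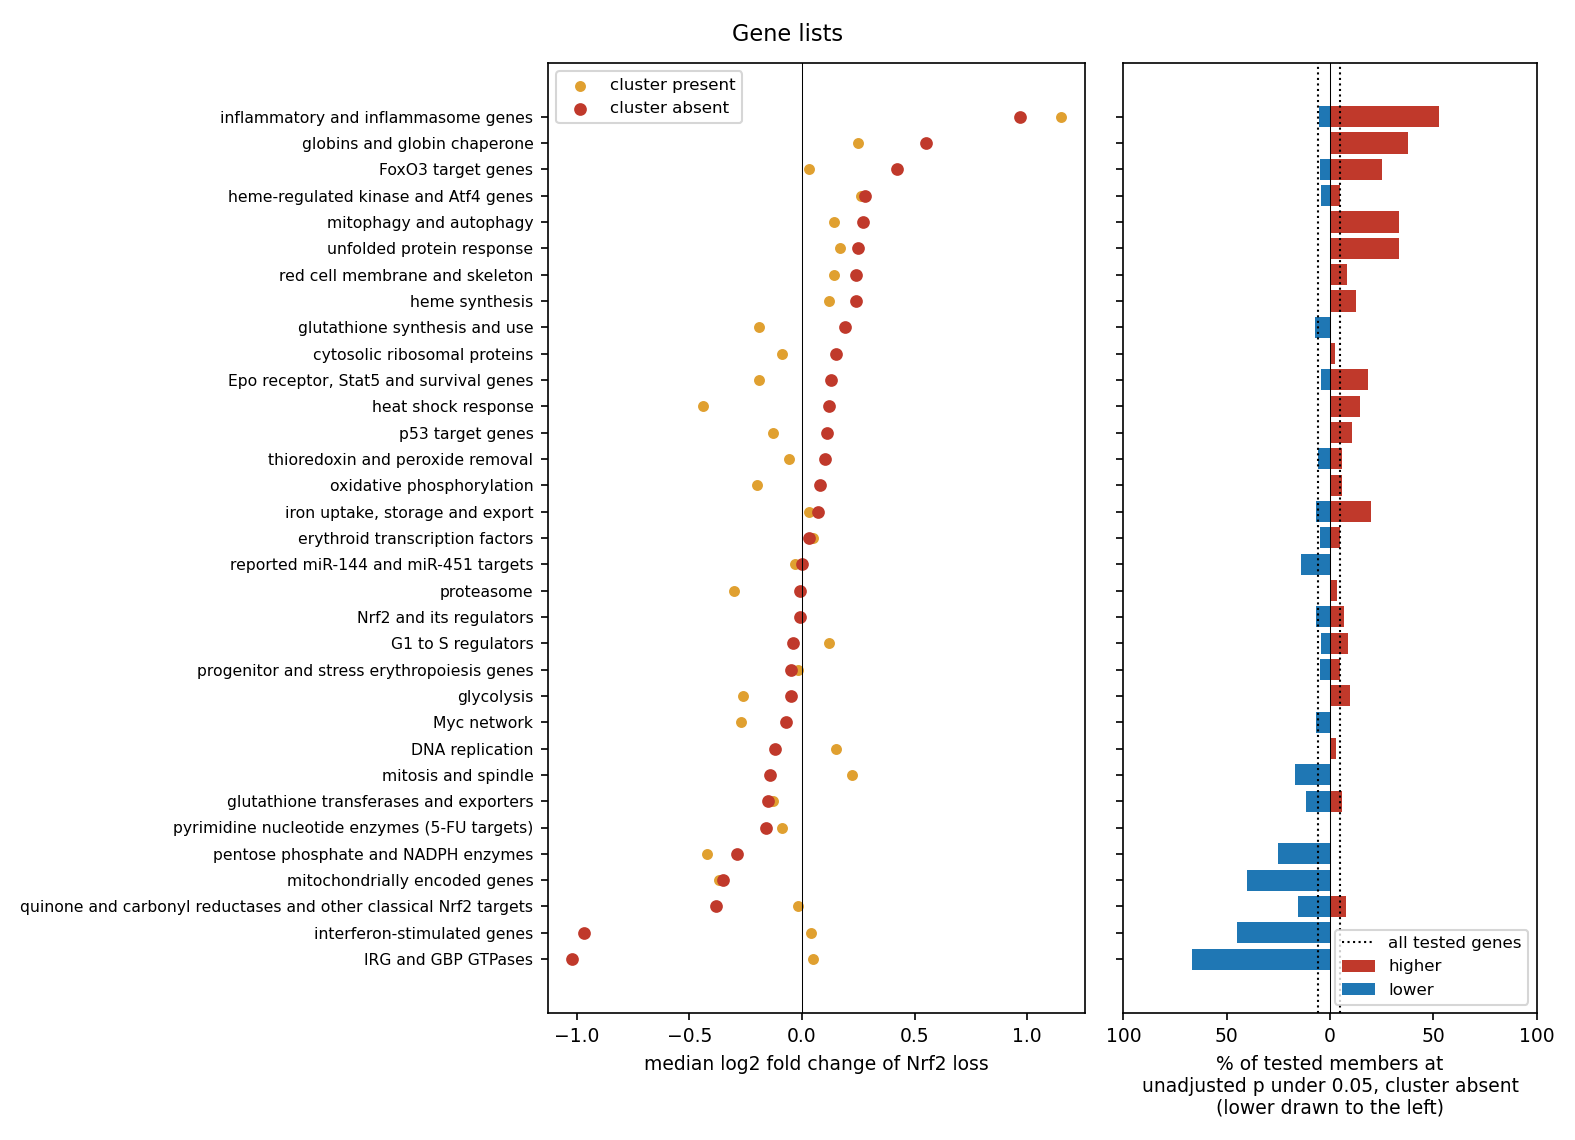
Left, median log2 fold change of Nrf2 loss in each gene list with the cluster absent (red) and present (orange). Right, percent of tested members higher (drawn right) or lower (drawn left) at an unadjusted p under 0.05 with the cluster absent, with dotted lines at 4.81% and 5.87% for all genes; the interferon and the IRG and GBP lists lie at -0.97 and -1.02.

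Interferon-stimulated genes were low in double-null, and 1 library set most of their median. None of 29 passed, and 13 were lower and none higher at an unadjusted p, beside 5.87% and 4.81% of all genes. The median log2 fold change was -0.97, against 0.04 with the cluster present. Their summed level was 6276 and 2195 CPM in miR-144/451-null and 2182, 3518 and 2099 CPM in double-null, so miR-144/451-null replicate 3 lay within the double-null range and replicate 1 far above it. Without replicate 1 the median was -0.05, and without replicate 3 it was -1.43. Each of these fits leaves 1 miR-144/451-null library. The antiviral RNA helicase gene Dhx58 stood at 25.2 and 7.74 CPM in miR-144/451-null and at 4.09, 5.85 and 4.40 CPM in double-null (-1.78 ± 0.43, adjusted p = 0.226, DESeq2 0.00393). Xaf1, an interferon-induced apoptosis gene, was at 80.9 and 12.8 CPM against 6.39, 11.5 and 9.08 CPM (-2.38 ± 0.62), and Rtp4 at 24.4 and 3.29 CPM against 1.04, 1.75 and 2.81 CPM (-2.87 ± 0.83).

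The interferon-inducible IRG and GBP GTPases, which attack the vacuoles of intracellular microbes, were negative in all 15 tested members. At an unadjusted p 10 were lower, beside 5.87% of all genes. None passed the threshold, and the median was -1.02. Gbp7 stood at 111 and 45.3 CPM against 29.9, 38.9 and 28.7 CPM (-1.27 ± 0.33, adjusted p = 0.272; DESeq2 0.0168) and Tgtp2 at 82.7 and 23.8 CPM against 16.1, 25.8 and 11.5 CPM (-1.58 ± 0.47; DESeq2 0.0205). Without miR-144/451-null replicate 3 the log2 fold changes were -1.8 for Gbp7 and -2.25 for Tgtp2. Without miR-144/451-null replicate 1 the list median was -0.71, with fewer members lower at an unadjusted p. Each of these fits leaves 1 miR-144/451-null library. Irgm2 stood at 288 and 245 CPM in miR-144/451-null, 109, 223 and 117 CPM in double-null, 239 to 315 CPM in Nrf2-null and 45.6 and 73.3 CPM in wild type. The difference between its effects was -2.99 (edgeR adjusted p = 0.0812), and that of Igtp -2.49 (adjusted p = 0.134). In edgeR both passed without double-null replicate 2, at adjusted p of 0.00299 and 0.00344. DESeq2 called both differences (adjusted p = 1.61e-08 and 3.67e-06).

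B cell markers were lower beside them. Of 12, none passed and 11 were lower at an unadjusted p, beside 5.87% of all genes. All were negative, and the median was -1.42 (-0.69 with the cluster present). DESeq2 called 7 lower, beside 0.705% of all genes in that test. Ms4a1 (CD20) stood at 27.1 and 66.2 CPM in miR-144/451-null and at 8.77, 17.8 and 9.08 CPM in double-null (-1.98 ± 0.44, adjusted p = 0.204), and Ighd and Cd22 had log2 fold changes of -1.88 ± 0.45 and -1.36 ± 0.34. The summed level of all 12 was 728 and 996 CPM against 359, 794 and 411 CPM, and none of the 12 was at 0 in all 5 libraries. With miR-144/451-null replicate 1 left out the median was -1.93, and without replicate 3 it was -0.78 with fewer members lower at an unadjusted p. Each of these fits leaves 1 miR-144/451-null library. Double-null replicate 2 was highest of its group in both the B cell and the interferon sums. The part of these cells in the interferon, IRG and GBP values was not tested.

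**Figure D5:**
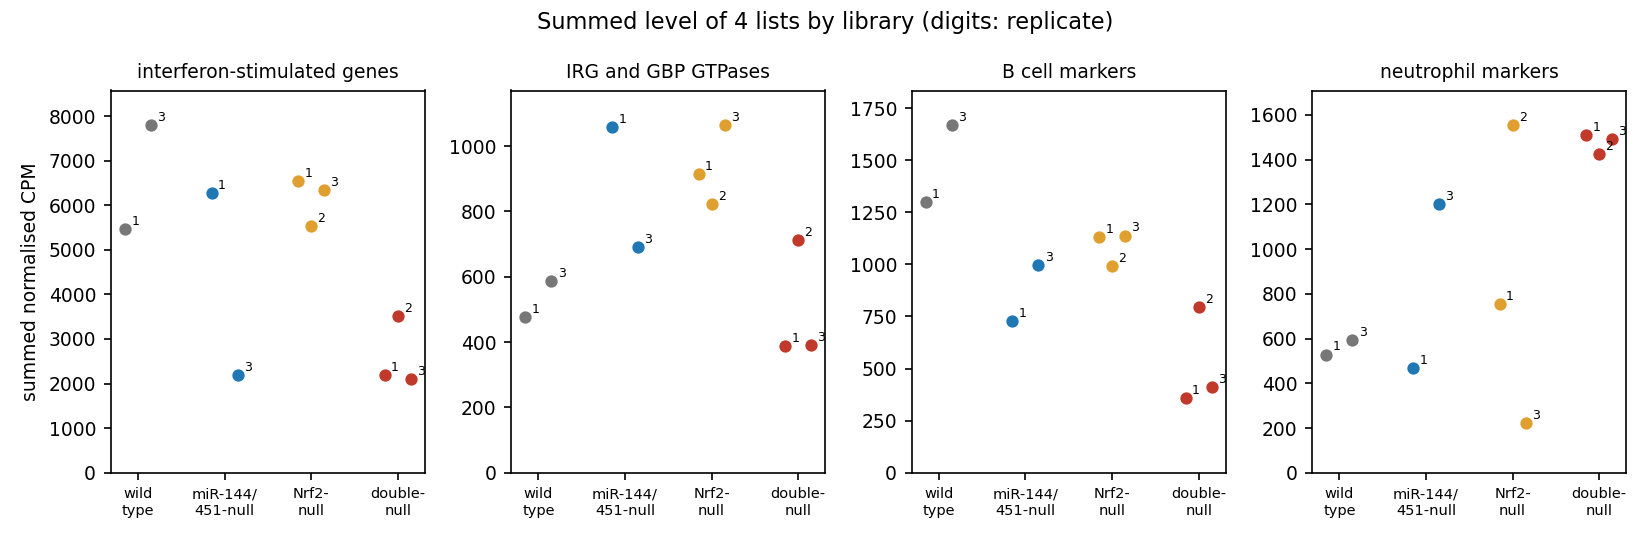
Summed normalised CPM of 4 lists in each of the 10 libraries, by genotype; the digit beside each point is the replicate. In the interferon panel miR-144/451-null replicate 1, at 6276 CPM, lies with wild type and Nrf2-null, and replicate 3, at 2195 CPM, with double-null.

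Inflammatory and inflammasome genes went the other way. Of 19, Naip2 and Naip5 passed, and 10 were higher and 1 lower at an unadjusted p, beside 4.81% and 5.87% of all genes. The median was 0.97, against 1.15 with the cluster present, where 9 were higher, beside 5.18% of all genes. Their summed level was 915 and 259 CPM in miR-144/451-null and 1565, 1843 and 1508 CPM in double-null. Tnf, the inflammatory cytokine, stood at 3.06 and 2.05 CPM against 5.20, 13.3 and 7.35 CPM (1.75 ± 0.55, adjusted p = 0.331; DESeq2 0.0491), and Casp1, the inflammasome protease, at 3.36 and 7.74 CPM against 1.86, 2.96 and 2.31 CPM (-1.23 ± 0.38, adjusted p = 0.326). Without miR-144/451-null replicate 1 the median was 1.80, and without replicate 3 it was 0.80 with fewer members higher at an unadjusted p. Each of these fits leaves 1 miR-144/451-null library. Neutrophil and granule markers, part of this setting, had a median of 0.82 over 16 genes with 1 higher at an unadjusted p, the collagenase gene Mmp8 (2.16 ± 0.92, adjusted p = 0.46). They summed to 469 and 1203 CPM in miR-144/451-null and to 1425 to 1508 CPM in double-null, and their part in the inflammatory values was not tested.

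Markers of other cells that a spleen isolate could hold overlapped between the groups in their summed levels. Macrophage and monocyte markers summed to 225 and 506 CPM against 206, 387 and 548 CPM (median 0.04 over 17). T and NK cell markers summed to 50.9 and 87.2 CPM against 25.6, 97.2 and 43.8 CPM. Of these 18 markers 1 was lower at an unadjusted p, the NK receptor gene Ncr1 (-2.19 ± 0.59), beside 5.87% of all genes. Dendritic cell markers summed to 72.9 and 56.7 CPM against 40.4, 70.5 and 40.1 CPM, with 3 of 8 lower at an unadjusted p, beside 5.87% of all genes. Megakaryocyte markers summed to 195 and 143 CPM against 164, 217 and 163 CPM, plasma cell markers to 296 and 181 CPM against 273, 422 and 407 CPM, and mast cell markers to 5.98 and 18.4 CPM against 5.58, 37.7 and 17.7 CPM.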

How the data were processed

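RNA-seq of spleen erythroblasts, 10 libraries of 4 genotypes, was used. The deposited files hold raw counts of 53465 Ensembl genes, every row with a gene ID, and FPKM values per library. The deposited FPKM equalled count divided by gene length and library total in all 196970 compared values (within 0.1%). FPKM served for levels between genes and are also given by group for Pir and Gpx1, without TMM scaling. The tools in the submitters' processing notes are HISAT2 2.1.0, TopHat2, Bowtie2 2.2.3 and CASAVA, and the build is mm9. No source used here gives the counting tool or its strandedness, so overlapping and antisense genes are not told apart.

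Symbols, gene order and 31-mers came from GENCODE M21 (99.6% of IDs matched), a later build, so no coordinates of the counts are printed. Sequences are from RefSeq, GRCm38.p6. All libraries entered 1 fit (R 4.3.3, edgeR 4.0.16, TMM, filterByExpr, robust quasi-likelihood, two-sided, 6 residual degrees of freedom). The same 14110 genes gave 3 contrasts, each adjusted over all of them: Nrf2 loss with the cluster absent, with it present, and the difference. CPM used TMM-scaled library sizes, and log2 fold changes carry an SE. Libraries held 13087827 to 15131036 counts, replicates differed by more than sampling noise (chi-square per degree of freedom 17.3 to 30.39), and floors cover counting error only.

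The text names the deleted genes; up to 15 per direction past the threshold with at least 5 CPM, no overlap and no predicted-gene name; from each list the 4 with the lowest p; and 5 per direction for the difference. Some genes the rule names are not reported here. The comparison and the 33 lists and 11 marker lists were chosen with earlier results of these data known, and lists got no set test. Simulated counts for double-null against miR-144/451-null had 200 changed among 14110 genes. In them 32% of the 2-fold and 69% of the 4-fold changes were called, and 6 of 107 calls were unchanged genes. The real contrast made 9 calls. With fewer calls the adjusted threshold demands a smaller unadjusted p. The simulated rates may therefore overstate what this contrast could detect. Alternatives were 20 in number, including DESeq2 1.42.0, other scaling and filters, a term for sex, a replicate block and leaving out each library.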

Additional observations from a re-analysis of the deposited data

Results flagged for a closer look

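Genes were looked at again where the effect of Nrf2 loss with the cluster absent differed from its effect with the cluster present by the test of the difference itself. The differences, on the log2 scale, were 4.04 for Naip2, 8.44 for Naip5, 4.33 for Fgfrl1, 2.13 for Idua and -2.53 for AA465934. The value for Naip5 is a fitted one and no bound, since both miR-144/451-null libraries had 0 counts. In each of these 5 genes 1 genotype stood apart from the other 3. Naip2 and Naip5 were low in miR-144/451-null, Fgfrl1 and Idua in Nrf2-null, and AA465934 in wild type. What set that genotype apart was not tested. With a term for sex, 2 genes passed this test in place of 9. Both wild type libraries were female and all Nrf2-null libraries male, so sex and genotype cannot be told apart in the contrast with the cluster present.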

How the results depend on the processing

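With 2 libraries in 1 arm the number of calls moved with most settings. Against 9 genes (7 higher, 2 lower, 9 at least 2-fold, and 9 for the difference between the effects), DESeq2 gave 183 (92 higher, 91 lower, 156 at least 2-fold, 24 for the difference) and no filter on low counts 743 (344, 399, 492 and 232). Male libraries alone gave 3 (2 higher, 1 lower, 3 at least 2-fold), only the 5 libraries of the contrast 2 (2, 0 and 2), and no scaling 6 (4, 2 and 6), with 12 for the difference. A term for sex left 2 for the difference. A minimum of 1 CPM in 3 libraries gave 8 and 6 for the difference. Size factors of the DESeq2 type gave 9, and removal of globin genes 8. Leaving out 1 library gave 4 to 78 genes, 4 to 39 higher, 0 to 39 lower, 4 to 77 at least 2-fold and 3 to 12 for the difference. The split into higher and lower moved too: 5 higher and 26 lower without miR-144/451-null replicate 3, 39 and 39 without miR-144/451-null replicate 1, 4 and 0 without double-null replicate 1 and 11 and 6 without double-null replicate 2. The cause was not tested. Leaving out 1 miR-144/451-null or wild type library leaves 1 in that group, so its own spread does not enter the fit. Male libraries and the 5 libraries alone cannot give the difference. The 9 called genes kept their sign in all 20 alternatives; Cwc22 passed in all 20, Naip2 in 19 (not with the 5 libraries alone). Nfe2l2 passed with no filter on low counts (adjusted p = 0.031).

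Deviations from the group means of same-numbered libraries correlated between -0.111 and 0.287 over 13 pairs. The highest was miR-144/451-null with double-null replicate 1, and miR-144/451-null replicate 3 with double-null replicate 2 gave 0.286. In a group of 2 libraries the deviations mirror each other, so these values cannot show whether replicate numbers pair the libraries. With the replicate block 4 genes passed (4 higher, 0 lower, 4 at least 2-fold) and 5 for the difference; of the 9 genes, Cwc22, Naip2, Eif3j2 and Naip5 remained and Pir did not (adjusted p = 0.0951). Genes near no change turned sign. Leaving out 1 library gave -0.12 (miR-144/451-null replicate 3) to 0.34 (miR-144/451-null replicate 1) for Gclm, -0.31 to 0.37 for Hmox1 (double-null replicates 3 and 1, and 0.22 without miR-144/451-null replicate 3), -0.15 to 0.02 for Prdx1 (double-null replicates 3 and 2, and 0.01 without double-null replicate 1 or miR-144/451-null replicate 1), -0.24 to 0.07 for Eif3j1 (miR-144/451-null replicates 3 and 1) and -0.02 to 2.31 for Hist1h4m (double-null replicate 3 and miR-144/451-null replicate 1). Gclm was -0.10 and Gpx1 -0.02 with no scaling, Eif3j1 was 0.02 with the replicate block, and Hist1h4m was -0.02 in male libraries and -0.04 with the term for sex.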

Other observations

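The 4 genes given here lie outside the naming rule and the lists, did not pass the threshold in edgeR, passed in DESeq2, and were named after their values were seen. Il1r1, the signalling receptor of interleukin 1, stood at 70.9 and 81.1 CPM in miR-144/451-null and at 185, 188 and 189 CPM in double-null (log2 fold change 1.3 ± 0.21, adjusted p = 0.072; DESeq2 7.32e-06), against 20.3 to 35.2 CPM in the 5 libraries with the cluster. It passed without Nrf2-null replicate 1 (adjusted p = 0.0134) or replicate 3 (0.034). Il1r2, the decoy receptor, also on chromosome 1, was at 2.85 and 0.528 CPM against 8.92, 16.8 and 18.9 CPM (3.17 ± 0.62, adjusted p = 0.166).

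Vegfd, a growth factor of lymphatic vessels and the tested gene that follows Pir on the X chromosome, stood at 3.21 and 3.05 CPM in miR-144/451-null and at 0.520, 0.380 and 0.865 CPM in double-null (-2.39 ± 0.41, adjusted p = 0.104; DESeq2 0.00142). Stard9, a kinesin gene on chromosome 2, stood at 3.06 and 3.29 CPM against 16.2, 10.9 and 11.0 CPM (2.00 ± 0.32, adjusted p = 0.0749), and at 15.5 to 30.1 CPM in Nrf2-null against 3.76 and 4.23 CPM in wild type (adjusted p = 0.00853). It passed without Nrf2-null replicate 2 (adjusted p = 0.0483) or replicate 3 (0.034).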
